A study of Mus musculus with 6 samples.

Results

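The AP-1 family genes followed here were Fos, Fosb, Fosl1, Fosl2, Jun, Junb, Jund, Atf3, Batf and Maff, taken by gene symbol from the deposited expression table. All 10 members were found, among 17469 genes in the table, and all 10 had enough counts to be tested. They were measured by RNA-seq in tdTomato+ cells sorted from cultured bone marrow stromal cells (BMSCs) of 6-month-old untreated mice. The authors took these cells as osteoblast (OB)-lineage cells, a label compared with marker genes below. There were 3 libraries from OCN-Cre;Ai9 mice (control) and 3 from TgAPPsweOCN;Ai9 mice, called TgAPPsweOCN from here on. Both genotypes carried OCN-Cre, which places Cre under the osteocalcin promoter, and Ai9, a reporter that makes tdTomato once Cre has removed its stop cassette. The TgAPPsweOCN mice also carried LSL-APPswe, in which the CAG promoter drives human amyloid precursor protein with the Swedish mutation after the same Cre has acted, whereas the labels name no APPswe allele for the control mice. The attached marrow cells were grown, passaged once, grown again and detached with trypsin before sorting. The number of mice behind each library is not given in the sources used here, so p-values measure the spread between libraries, part of which may be technical.

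AP-1 is a set of dimeric transcription factors built from basic leucine zipper proteins. Fos proteins cannot pair with each other and need a Jun partner, whereas Jun proteins also pair among themselves, and the dimers bind the sequence TGANTCA (the TPA response element, TRE) or the related cyclic AMP response element (CRE). Many members are immediate early genes, transcribed within minutes of a growth factor, cytokine or stress signal and shut off soon after. In bone, Fos is required for marrow precursors to become osteoclasts, while Fosb, Fosl1, Fosl2 and Junb act in bone-forming cells. Atf3, Batf and Maff are zipper proteins at the edge of the family. Batf and Maff lack an activation domain of their own, and Batf can take the place of Fos beside Jun.

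Estimated counts summed to 19340810 to 19801060 per control library and 21677461 to 22037840 per TgAPPsweOCN library. FPKM is the level of a gene per length of transcript and per mapped fragments, and levels of different genes are compared below only on that scale. App, the gene of the transgene, stood at 279 ± 3.5 FPKM in control and at 330.0 ± 4.18 in TgAPPsweOCN cells (mean ± SD of 3 libraries), in 1 entry that does not separate human from mouse transcripts. The label of the cells was checked against marker genes. None of the 15 myeloid markers was below an FPKM of 1 in all 6 libraries. Their summed FPKM was 19500 to 20300 in control and 16000 to 19700 in TgAPPsweOCN libraries. The 15 stromal and osteoblast-lineage markers summed to 234 to 275 and 170.0 to 234, with Lepr and Nt5e below 1 in all 6 libraries. The markers of the labelled lineage were thus scarce beside those of myeloid cells, and the values below describe the sorted tdTomato+ fraction as a whole. In such bulk samples fewer cells of a type and less RNA per cell cannot be told apart.

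The promoters of 4 members are shown first because their RNA levels moved furthest among the genes that had a searched motif (Fos, Batf and Maff), or because the motif is a known site of autoregulation (Jun). Sequences are from RefSeq in build GRCm38.p6, whose coordinates are those of mm10, the build in the submitters' processing notes. They run 5′ to 3′ on the gene's own strand and end just before the first base of the transcript, or earlier where another annotated exon begins, and capitals mark the matches. Fos is shown for chr12:85473640-85473889 (plus strand), Batf for chr12:85686470-85686668 (plus strand), Jun for chr4:95052223-95052472 (minus strand) and Maff, upstream of 1 of its 3 start sites, for chr15:79347270-79347519 (plus strand).
Fos: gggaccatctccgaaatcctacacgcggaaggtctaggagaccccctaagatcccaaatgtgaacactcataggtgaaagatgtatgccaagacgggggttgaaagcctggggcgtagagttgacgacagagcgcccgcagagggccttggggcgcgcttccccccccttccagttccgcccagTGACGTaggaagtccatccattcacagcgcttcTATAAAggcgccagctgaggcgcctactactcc
Batf: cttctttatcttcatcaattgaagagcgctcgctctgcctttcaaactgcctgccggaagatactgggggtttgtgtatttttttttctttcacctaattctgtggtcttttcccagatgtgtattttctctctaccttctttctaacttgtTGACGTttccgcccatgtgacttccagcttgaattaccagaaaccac
Jun: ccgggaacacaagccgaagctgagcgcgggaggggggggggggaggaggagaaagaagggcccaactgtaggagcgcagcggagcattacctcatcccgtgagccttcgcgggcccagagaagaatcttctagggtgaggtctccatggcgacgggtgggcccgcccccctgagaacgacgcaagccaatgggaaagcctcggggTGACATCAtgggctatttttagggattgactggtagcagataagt
Maff: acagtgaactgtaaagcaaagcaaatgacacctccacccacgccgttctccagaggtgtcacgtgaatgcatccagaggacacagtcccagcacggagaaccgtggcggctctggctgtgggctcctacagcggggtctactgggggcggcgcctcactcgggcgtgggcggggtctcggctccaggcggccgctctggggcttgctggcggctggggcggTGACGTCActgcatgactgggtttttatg
The core TGACGT of the CRE began 66 bases before the Fos start, 98 bases before the Batf start and 29 bases before this Maff start, where it lay inside the palindrome TGACGTCA. In Jun the octamer TGACATCA, known as a site that Jun dimers bind, began 45 bases before the start. Among the 9 members with a promoter in the table, TATAAA was found in Fos, where it began 33 bases before the start.

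Of the 10 members, 9 had a promoter in the RefSeq table, in 11 windows of 250 bases before a start site, searched on both strands. TGACGT was found in 4 of these windows (Fos, Batf, Maff and, 8 bases before its start on the other strand, Atf3), against 6.47% of the 32851 mouse windows searched the same way. TGACATCA was found in 2 windows, those of Jun and of another Maff start site, against 2.93% of all windows. TGANTCA was found in 0 of 11 against 6.75%, TATAAA in 1 of 11 against 12.4%, and the CArG box, the sequence bound by serum response factor, in 0 of 11 against 1.47%. A match describes these letters only, and their absence from a window says nothing about sites further away.

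Between the genotypes, the family shifted in both directions. Fos, Fosb, Fosl2, Jun and Jund were lower in TgAPPsweOCN than in control cells, Atf3, Batf and Maff were higher, and Junb and Fosl1 did not pass the test. Thus 8 of 10 members had an adjusted p (edgeR quasi-likelihood test, Benjamini-Hochberg) of 0.05 or less, against 64.0% of the 12701 genes tested. The 3 raised members stood beside 32.5% of all genes raised, and the 5 lowered members beside 31.5% lowered. Batf and Maff rose, and Fos and Fosb fell, by at least 1 on the log2 scale, so 4 of 10 members passed that fold threshold against 18.1% of all genes, of which 8.90% were raised and 9.20% lowered. FPKM ranges of the genotypes were apart for 8 of 10 members, against 72.3% of all genes. The share of members that changed at all was therefore near the background, and their median log2 fold change was -0.29 against -0.02 for all genes tested.

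**Figure D1:**
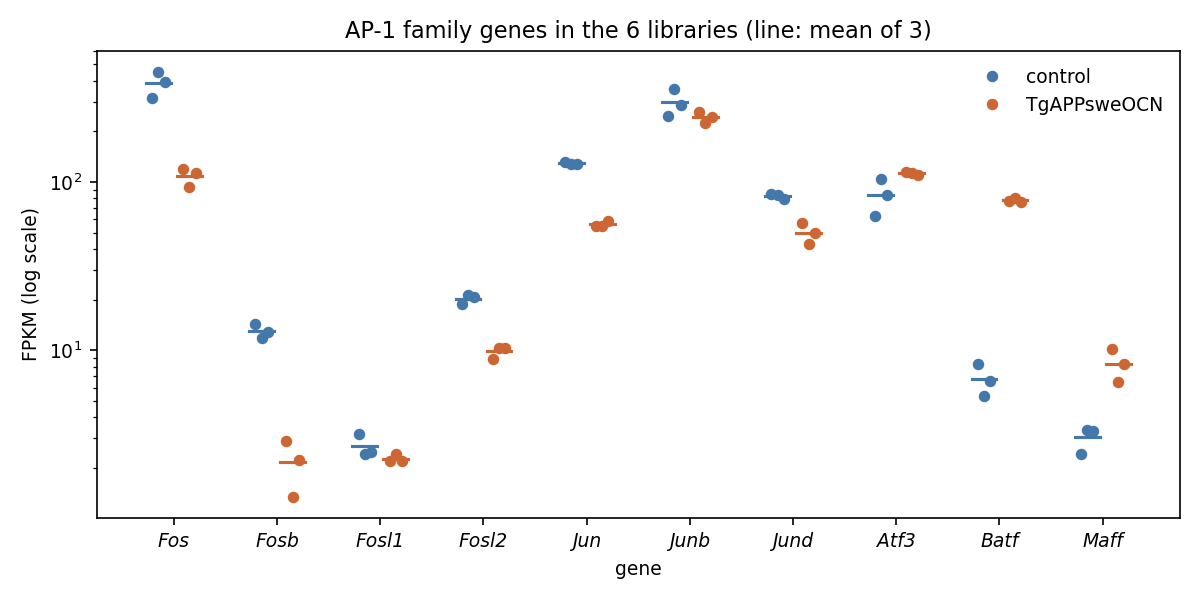
FPKM (log axis) of the 10 AP-1 family genes in each library, with 3 control and 3 TgAPPsweOCN points per gene and a line at their mean. The control and TgAPPsweOCN points overlap for Junb and Fosl1 and are apart for the other 8 genes, with Batf moving from 5.32 to 8.32 up to 76.4 to 80.5.

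In control cells the members followed the order Fos, Junb, Jun, Atf3, Jund, Fosl2, Fosb, Batf, Maff and Fosl1 by mean FPKM. Ranges of neighbours overlapped for Fos and Junb, for Atf3 and Jund, and for Maff and Fosl1, although Fos exceeded Junb within each of the 3 libraries. In TgAPPsweOCN cells the order was Junb, Atf3, Fos, Batf, Jun, Jund, Fosl2, Maff, Fosl1 and Fosb. There Atf3 overlapped with Fos, Jun with Jund, Fosl2 with Maff, and Fosl1 with Fosb. Fos, the 180th gene of the whole table by mean FPKM in control cells, was the 752nd in TgAPPsweOCN cells. Batf moved the other way, from 7608th to 1062nd.

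Fos, the partner of Jun in the classical AP-1 dimer (Entrez identifier 14281, chromosome 12, 85473890 to 85477274), had an FPKM of 314, 449.7 and 393 in control. Its TgAPPsweOCN values were 120.1, 93.8 and 113. Even the lowest control library was far above the highest TgAPPsweOCN library. The mean was 386 ± 68.4 FPKM in control and 109 ± 13.6 in TgAPPsweOCN cells, and Fos fell with a log2 fold change of -1.60 (standard error 0.145, 95% interval -1.94 to -1.27, adjusted p = 2.18e-05, edgeR). On the scale of normalized counts this was a 3.04-fold fall. FPKM ratios are larger than edgeR's folds for genes that fell, because the TMM factors used by edgeR were 1.07 to 1.08 in control and 0.91 to 0.94 in TgAPPsweOCN libraries.

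Fosb, which also encodes the truncated and long-lived ΔFosB protein (14282, chromosome 7, 19302696 to 19310118), had the largest fall of the family. Its FPKM was 14.3, 11.9 and 12.9 in control and 2.90, 1.35 and 2.24 in TgAPPsweOCN libraries. Each TgAPPsweOCN library was below each control library, and relative to their mean the 3 differed more than the controls did. Behind these values were 871 to 1041 estimated counts in control and 110 to 237 in TgAPPsweOCN libraries. The log2 fold change was -2.37 (standard error 0.225, interval -2.89 to -1.86, adjusted p = 2.91e-05, edgeR), or 5.17-fold. The table holds 1 entry for the gene and does not separate full-length Fosb from ΔFosB transcripts.

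Fosl2, known as Fra-2 (14284, chromosome 5, 32136472 to 32157840), had an FPKM of 18.7, 21.4 and 20.7 in control and 8.86, 10.3 and 10.3 in TgAPPsweOCN libraries. Values within a genotype were close, and the genotypes did not overlap. It fell by 0.83 on the log2 scale (standard error 0.0746, interval -1.0 to -0.66, adjusted p = 2.21e-05, edgeR). Fosl1, known as Fra-1 (14283, chromosome 19, 5447698 to 5455938), had an FPKM of 3.16, 2.41 and 2.48 in control and 2.19, 2.41 and 2.21 in TgAPPsweOCN libraries. Its groups overlapped, and its log2 fold change was -0.03 (interval -0.40 to 0.34, adjusted p = 0.883, edgeR). Its counts were low and fractional in all 6 libraries, and its GENCODE gene model overlaps that of Ccdc85b on the opposite strand, so its value is uncertain.

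Jun (16476, chromosome 4, 95049036 to 95052222), the pivotal partner in most AP-1 dimers, had the smallest spread of the members relative to its mean in control. Its FPKM was 130.5, 128 and 127 in control and 55.0, 55.1 and 58.8 in TgAPPsweOCN libraries. The spread within a genotype was a few FPKM against a difference of means of 129 ± 1.7 to 56.3 ± 2.17. The log2 fold change was -0.98 (standard error 0.0543, interval -1.10 to -0.85, adjusted p = 1.47e-06, edgeR), just short of the fold threshold. Leaving out control replicate 3 or TgAPPsweOCN replicate 3 gave -1.0 in both fits, at the threshold. The antisense gene Junos overlaps Jun in GENCODE, and whether counting used strand is not given in the sources used here.

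Jund, the member usually made at a steady level in resting cells (16478, chromosome 8, 70697739 to 70700616), had an FPKM of 85.1, 83.9 and 78.6 in control and 56.9, 42.8 and 49.5 in TgAPPsweOCN libraries. The groups were apart, with a wider spread in TgAPPsweOCN cells. Its log2 fold change was -0.51 (standard error 0.107, interval -0.76 to -0.27, adjusted p = 0.00285, edgeR), the smallest of the 5 falls. The antisense gene Gm11175 overlaps Jund in GENCODE, so its value has the same limit of strand as that of Jun.

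Junb, which can oppose Jun at growth genes (16477, chromosome 8, 84976909 to 84978748), had an FPKM of 247, 354 and 287 in control and 259, 224 and 244 in TgAPPsweOCN libraries. The lowest control library lay within the TgAPPsweOCN range. The log2 fold change was -0.07 (standard error 0.126, interval -0.36 to 0.22, adjusted p = 0.64, edgeR), and without control replicate 2 it was 0.07. At 242 ± 17.8 FPKM it was the most abundant member of the family in TgAPPsweOCN cells, after being second to Fos in control. The GENCODE models of Junb and Prdx2 overlap on opposite strands, and that of Atf3 overlaps the small RNA gene Gm24748 likewise.

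Batf, a small partner of Jun proteins known from lymphocytes and dendritic cells (53314, chromosome 12, 85686720 to 85709087), rose the most. Its FPKM was 8.32, 5.32 and 6.56 in control and 77.5, 80.5 and 76.4 in TgAPPsweOCN libraries. The 3 TgAPPsweOCN libraries were nearly equal and far above the controls, with 88 to 136 estimated counts in control and 1380 to 1471 in TgAPPsweOCN libraries. The rise had a log2 fold change of 3.75 (standard error 0.129, interval 3.45 to 4.05, adjusted p = 1.45e-07, edgeR), a 13.5-fold rise on normalized counts. This placed Batf 153rd of the 12701 tested genes by log2 fold change.

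Maff, a small Maf protein that pairs with the cap'n'collar factors of the Nfe2 and Bach families (17133, chromosome 15, 79346621 to 79359078), had an FPKM of 2.43, 3.37 and 3.33 in control. In the TgAPPsweOCN libraries it was 10.2, 6.51 and 8.23. All TgAPPsweOCN values were above all control values, although they differed by more than the controls did. The log2 fold change was 1.67 (standard error 0.185, interval 1.24 to 2.09, adjusted p = 7.38e-05, edgeR), or 3.18-fold.

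Atf3, a stress-induced factor of the ATF/CREB group that pairs with Jun proteins (11910, chromosome 1, 191170296 to 191183333), had an FPKM of 62.8, 103 and 83.9 in control. Its TgAPPsweOCN values were 115, 112 and 110.2. The groups did not overlap, but the highest control library came close to the lowest TgAPPsweOCN library, and most of the spread was in control. It rose, with a log2 fold change of 0.65 (standard error 0.151, interval 0.30 to 1.0, adjusted p = 0.00518, edgeR). On log2(FPKM + 1) without a filter on low values, limma gave 0.46 with an adjusted p of 0.0618.

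**Figure D2:**
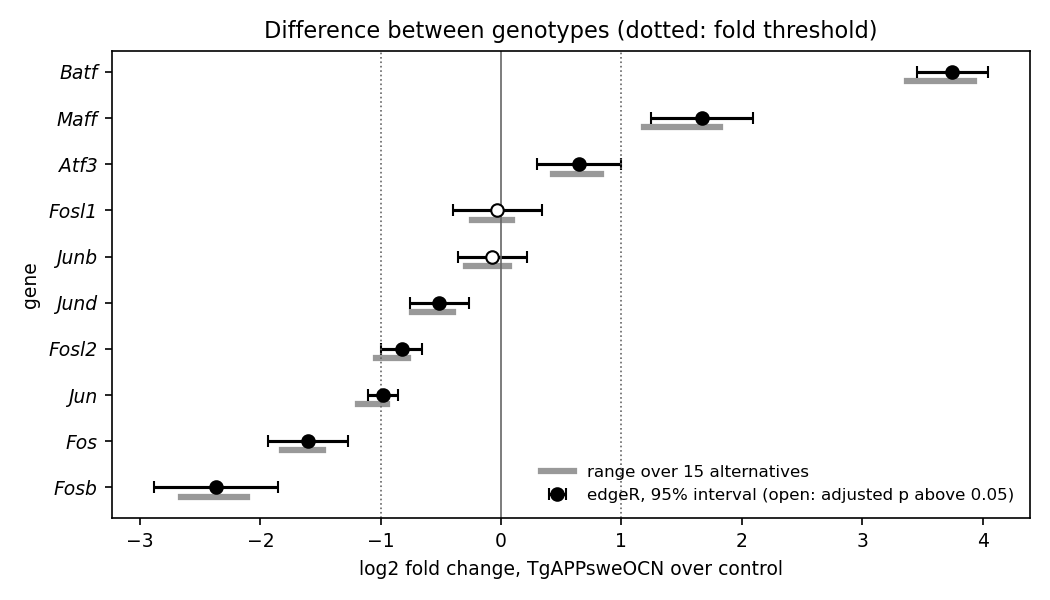
Log2 fold change of each member (x axis, TgAPPsweOCN over control) with its 95% interval from edgeR; grey bars give the range over 15 alternative settings and dotted lines the fold threshold of 1. Batf (3.75) and Maff (1.67) lie right of the threshold, Fos (-1.60) and Fosb (-2.37) left of it, and the open points of Fosl1 and Junb have an adjusted p above 0.05.

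The balance within each subfamily was compared as shares of summed FPKM in a library, which do not depend on scaling between libraries. Fos made up 91.3% ± 1.52 (SD, n = 3) of the Fos subfamily in control and 88.3% ± 1.34 in TgAPPsweOCN cells, and so dominated it in both. The share of Fosl2 was 4.86% ± 0.479 and 8.09% ± 1.49. The share of Fosb was 3.18% ± 0.834 and 1.72% ± 0.457, and that of Fosl1 0.659% ± 0.215 and 1.87% ± 0.323. In the Jun subfamily the share of Junb was 58.1% ± 4.56 in control and 69.6% ± 0.282 in TgAPPsweOCN cells, a difference of 11.5 percentage points. The share of Jun was 25.5% ± 2.77 and 16.2% ± 1.22, and that of Jund 16.4% ± 1.84 and 14.2% ± 1.02. The groups overlapped for Jund (exact permutation test, two-sided p = 0.2, Benjamini-Hochberg 0.2 over 7 shares), whose difference of -2.16 percentage points was -1.15 without control replicate 1. For Fos, Fosb, Fosl1, Fosl2, Jun and Junb the exact permutation test gave p = 0.1 (0.117 adjusted), the smallest that 3 libraries against 3 allow, so none could pass 0.05. As a share of all 10 members rather than of its subfamily, Fosl2 was lower by 0.519 percentage points in TgAPPsweOCN cells.

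**Figure D3:**
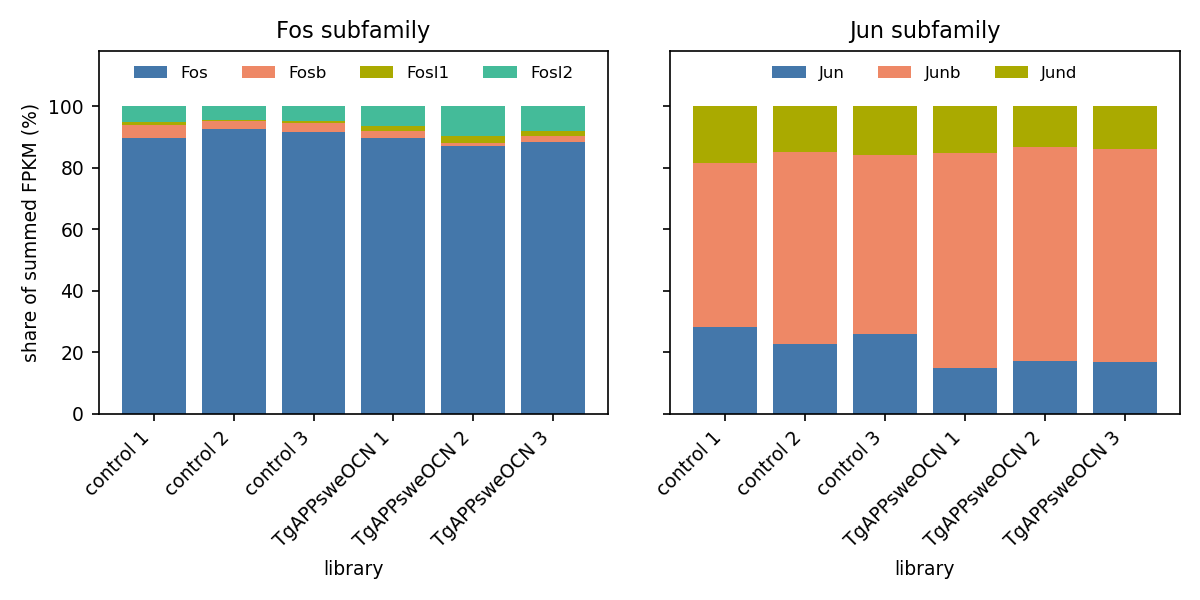
Stacked bars of each member's share (y axis, % of summed FPKM) of the Fos subfamily (left) and of the Jun subfamily (right) in each of the 6 libraries. Fos fills most of the left bars in both genotypes, and the Junb segment is taller in the 3 TgAPPsweOCN libraries (69.3% to 69.9%) than in the control libraries (53.4% to 62.5%).

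The summed FPKM of the Fos subfamily was 421 ± 68.1 in control and 123 ± 13.7 in TgAPPsweOCN cells, and that of the Jun subfamily was 508 ± 53.5 and 348 ± 25.0. Fos-subfamily FPKM per Jun-subfamily FPKM was 0.756, 0.856 and 0.871 in control against 0.361, 0.335 and 0.363 in TgAPPsweOCN libraries. The summed FPKM of the Fos subfamily thus fell more than that of the Jun subfamily. Fos itself made up 91.3% of the first sum in control. Besides Fos, Fosb fell further than Jun (log2 fold changes -2.37 and -0.98, edgeR), Fosl2 fell less (-0.83), and Fosl1 (-0.03) did not pass the test. The level of Batf per Fos was 0.0183 ± 0.00749 in control and 0.726 ± 0.116 in TgAPPsweOCN cells, and that of Atf3 per Fos was 0.215 ± 0.015 and 1.04 ± 0.134. Jun per Junb was 0.444 ± 0.0826 and 0.233 ± 0.0182. All 10 members together summed to 1020 ± 139 and 671 ± 39.8. The genotypes were apart in each of these quantities (exact permutation test, two-sided p = 0.1 for each, the smallest possible).

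Fos and Batf, members that moved in opposite directions, are neighbours on chromosome 12. They are separated by 209 kb, and Jdp2 (85598656 to 85639878), a zipper protein that pairs with Jun and represses AP-1 sites, was the other gene of the expression table between them. Jdp2 had an FPKM of 14.0, 13.2 and 13.2 in control and 23.6, 19.5 and 20.8 in TgAPPsweOCN libraries, with no overlap. It rose, with a log2 fold change of 0.88 (adjusted p = 5.29e-05, edgeR). Along these 235198 bases Fos therefore fell while Jdp2 and Batf rose.

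Libraries of the same genotype also differed from each other, and some members did so together. After subtracting the genotype mean of log2 CPM (counts scaled to the TMM-adjusted library total), Fos deviated by -0.28, 0.24 and 0.04 in control replicates 1, 2 and 3 and by 0.18, -0.23 and 0.06 in the TgAPPsweOCN replicates. Junb deviated by -0.24, 0.27 and -0.03, and by 0.13, -0.14 and 0.01. Control replicate 1 and TgAPPsweOCN replicate 2 were thus low for both genes, and control replicate 2 and TgAPPsweOCN replicate 1 high. Over the 6 libraries the deviations of Fos correlated with those of Junb at a Pearson r of 0.95, with Maff at 0.93 and with Atf3 at 0.83. Jun (r = 0.17), Fosl2 (0.21), Fosb (0.43) and Jund (0.52) followed Fos less, and Batf (-0.79) and Fosl1 (-0.86) had the opposite sign. These 6 points share the libraries and their depth, the 3 deviations of a genotype sum to 0, and the comparison was chosen after the values were seen.

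Maff deviated from its genotype mean by -0.27, 0.14 and 0.13 in control and by 0.31, -0.33 and 0.02 in TgAPPsweOCN libraries, that is with Fos, although Fos was lower and Maff higher in TgAPPsweOCN cells. Fosb deviated by 0.52, -0.62 and 0.11 in the TgAPPsweOCN libraries, the widest spread of a member. Jun stayed within 0.06 of its genotype mean in all 6 libraries. Of 30 other immediate early genes tested, 13 (43.3%) had deviations with an r above 0.9 to those of Fos, against 625 (4.92%) of all 12700 other genes tested. For Junb this held for 11 of the 30 (36.7%) against 3.55%, and for Atf3 for 8 of the 30 (26.7%) against 3.31%. The 13 genes included Egr1 (0.97), Zfp36 (0.98) and Nr4a1 (0.92), which were lower in TgAPPsweOCN cells, and Ptgs2 (0.997), Klf6 (0.98) and Csrnp1 (0.97), which were higher. Other genes of the list had the opposite sign to Fos, with an r of -0.96 for Ctgf and Zfp36l1, -0.89 for Cyr61, -0.68 for Gem and -0.67 for Per1. Of 26 genes known to respond to tissue dissociation, 9 (34.6%) were above 0.9 for Fos, and that list shares genes with the first, while of its heat shock genes Hspa1a was at -0.93 and its near-identical copy Hspa1b, with which it may share reads, at 0.33. Time from detachment to lysis is not given in the sources used here, and its part in these values was not tested.

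**Figure D4:**
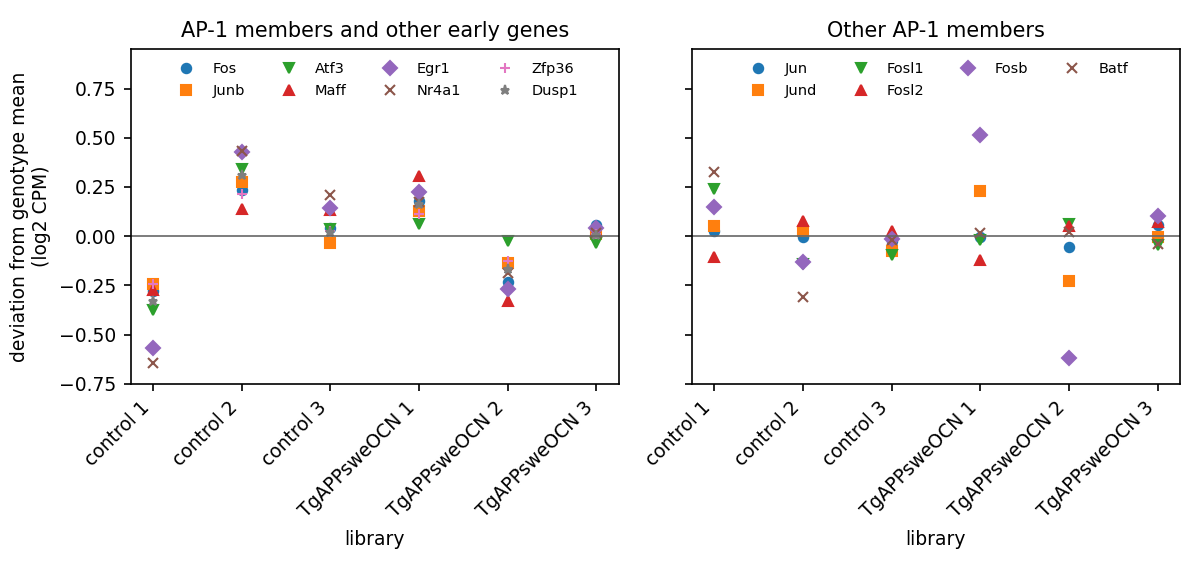
Deviation of each gene from its genotype mean (y axis, log2 CPM) in the 6 libraries, for members and other early genes that varied with Fos (left) and for the other members (right). On the left all 8 genes are below 0 in control 1 and TgAPPsweOCN 2 and above 0 in control 2 and TgAPPsweOCN 1; on the right Jun stays near 0 and Fosb spreads from -0.62 to 0.52 in TgAPPsweOCN cells.

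By the level over all 6 libraries, the genes most like Fos were Arsk, Gid4 and Btg1, with a Pearson r of log2 CPM of 0.9989, 0.9986 and 0.998. In all, 103 genes were above 0.99 to Fos. The 6 points form 2 groups by genotype, so a shared genotype difference enters each r. The genes most like Junb were Ss18 (0.9855), Haghl and Garem1 (0.9762 each), and no gene was above 0.99. The genes most like Atf3 were Gas2 (0.9932), Nipa2 (0.9928) and Zfp979 (0.9925), of which Zfp979 was barely detected in control cells.

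Of the 8 tested other AP-1 and Maf genes reported here, 6 were raised and 1 lowered (87.5% called, beside 64.0% of all genes). Their median log2 fold change was 0.55. With scaling by library size only, 4 were raised and 2 lowered. Batf3, the relative of Batf known from dendritic cells, had an FPKM of 2.23, 1.49 and 2.17 in control and 11.3, 10.3 and 8.85 in TgAPPsweOCN libraries (log2 fold change 2.58, adjusted p = 1.06e-05). Batf2 rose from 5.21 ± 0.602 to 10.2 ± 0.386 (1.16, adjusted p = 2.65e-05), so all 3 Batf genes were higher. Maf, a large Maf factor with an activation domain, rose from 172 ± 15.2 to 261 ± 11.2 FPKM (0.81, adjusted p = 3.35e-05). Among 20 other zipper factors tested, 7 rose and 7 fell (70.0% called, beside 64.0% of all genes), with a median of 0.01, and scaling by library size only gave 5 and 8. Cebpa, a driver of myeloid differentiation, fell by 1.99 on the log2 scale, and Bach2, at an FPKM of 0.29 ± 0.0436 in control and with fractional counts, by 1.26. Nfe2l1, a possible partner of Maff, rose from 46.9 ± 0.857 to 105 ± 3.43 FPKM (1.39, adjusted p = 2.52e-07), and Atf6, a sensor of endoplasmic reticulum stress, rose by a log2 fold change of 0.96.

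Other immediate early genes fell more often than they rose, as the Fos genes did, with 15 lowered and 7 raised among 30 tested (73.3% called, median log2 fold change -0.48). Of all genes tested, 64.0% were called, 32.5% raised and 31.5% lowered. The 3 largest changes, in Ptgs2, Gem and Gadd45b, were rises. Ptgs2, which encodes cyclooxygenase-2, had an FPKM of 1.29, 4.14 and 2.91 in control and 29.9, 12.1 and 22.5 in TgAPPsweOCN libraries (log2 fold change 3.17, adjusted p = 0.000247). Gadd45b rose from 9.56 ± 0.9 to 46.5 ± 1.55 FPKM and the kinase gene Sik1 from 1.63 ± 0.3 to 6.86 ± 1.43. Gem had 3 to 8 estimated counts in control and 23 to 32 in TgAPPsweOCN libraries (adjusted p = 0.000636). Egr1, Egr2, Egr3, Nr4a1 and Zfp36, named after their values were seen, fell by log2 fold changes of -1.06, -1.57, -1.03, -1.51 and -0.80. The largest fall, also named after its value was seen, was in Zfp36l1, from 159 ± 4.68 to 27.9 ± 1.73 FPKM (-2.30, adjusted p = 3.85e-08).

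**Figure D5:**
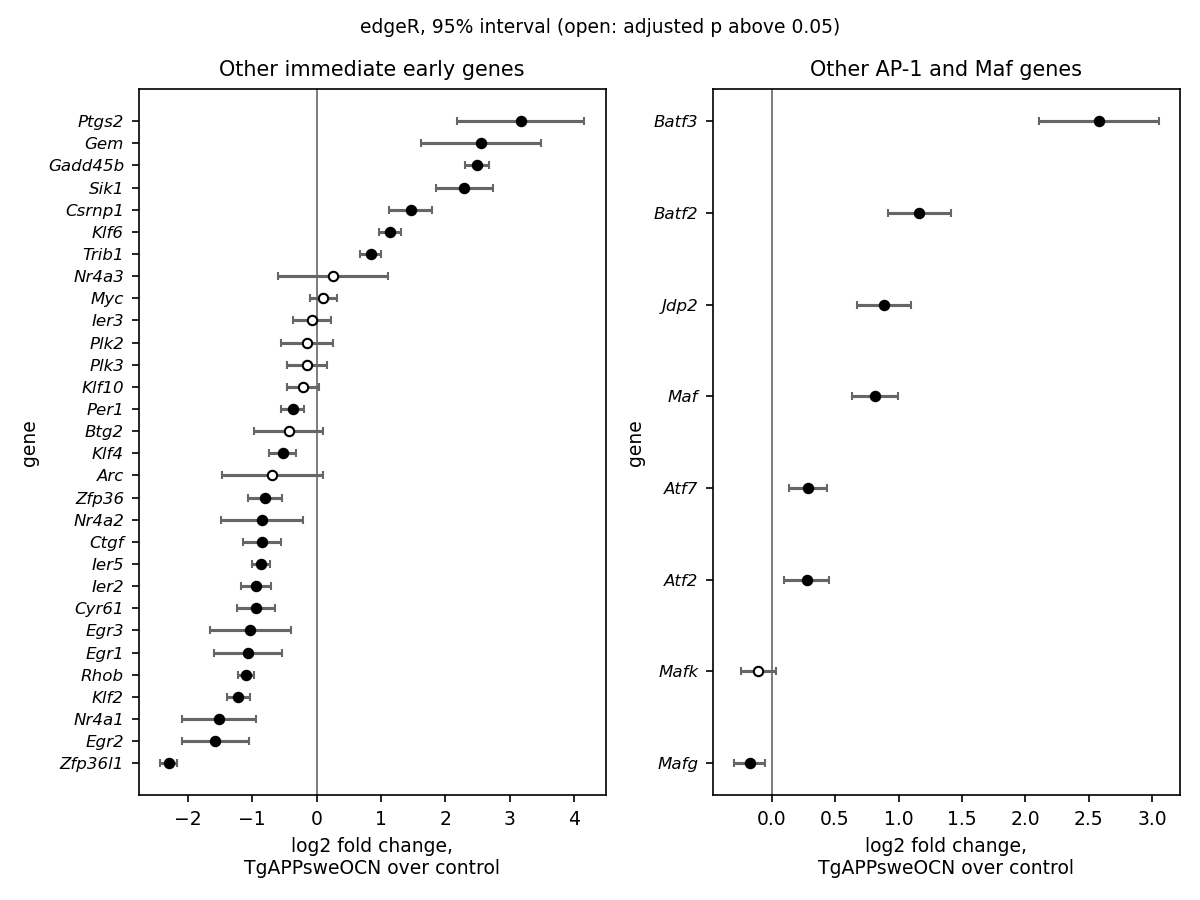
Log2 fold change (x axis, TgAPPsweOCN over control) with its 95% interval from edgeR for 30 other immediate early genes (left) and 8 other AP-1 and Maf genes (right), with open points where the adjusted p was above 0.05. On the left 15 genes lie below 0 and 7 above it among the filled points; on the right Batf3 (2.58) and Mafg (-0.17) lie at the ends.

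The factors and kinases that act upstream of AP-1 changed in both directions. Their counts stand beside 64.0% of all genes called, 32.5% raised and 31.5% lowered. Of 10 genes of serum response factor, its cofactors and the related Mef2 factors, 2 rose and 4 fell (60.0% called), with a median log2 fold change of -0.18 and the largest fall in Mef2c (-1.63, adjusted p = 1.72e-07). Of 13 genes of the JNK cascade, whose kinases activate Jun protein, 3 rose and 4 fell (53.8% called), led by Map3k5 at 10.5 ± 0.475 and 2.89 ± 0.256 FPKM (-1.65, adjusted p = 6.78e-07) and Map3k12 (-1.02), which had fractional counts. Of 15 genes of the ERK cascade, 9 rose and 2 fell (73.3% called), with a median of 0.26, and the exchange factor gene Sos1 rose the most (1.72, adjusted p = 9.12e-06). These 3 counts depend on normalization, since scaling by library size only gave 1 raised and 7 lowered, 1 raised and 8 lowered, and 5 raised and 4 lowered. Of 9 genes of the p38 cascade, 3 rose, with Mapk11 at 1.17, and 4 fell (77.8% called). Of 10 genes that mark AP-1 proteins for degradation or protect them, 5 rose, with the ligase gene Cop1 at 0.73 and Cops5 at 0.72, and 2 fell, with the deubiquitinase gene Usp28 at -0.67 (70.0% called), against 4 and 3 with library size only. RNA levels do not show the amount or phosphorylation of AP-1 proteins, which were not analysed here.

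Among 12 factors that bind DNA together with AP-1, 4 were raised and 4 lowered (66.7% called, beside 64.0% of all genes, and a median log2 fold change of 0.01). Irf4, the partner of Batf in lymphocytes, had an FPKM of 1.26 ± 0.442 in control and 0.197 ± 0.0351 in TgAPPsweOCN cells (-2.46, adjusted p = 0.000126), so it fell where Batf rose. Ets2, which binds beside AP-1 at protease genes, rose from 27.4 ± 0.949 to 140.0 ± 3.66 FPKM (2.57, adjusted p = 2.23e-08). Smad3 rose by 1.11 on the log2 scale and Runx1 fell by 0.88.

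Of 26 genes known as AP-1 targets in other cells, 13 rose and 8 fell (80.8% called, median log2 fold change 0.32), beside 64.0% called, 32.5% raised and 31.5% lowered among all genes. The largest rises included genes of matrix metalloproteinases, which cut the extracellular matrix. Mmp9 had an FPKM of 2.74, 1.31 and 1.60 in control and 169, 69.3 and 124 in TgAPPsweOCN libraries (6.23, adjusted p = 3.91e-06). Mmp3 rose from 0.47 ± 0.178 to 20.9 ± 11.5 FPKM (5.67, adjusted p = 2.48e-05) and the receptor gene Egfr from 1.1 ± 0.112 to 6.11 ± 1.7. Il6 had 4, 1 and 5 estimated counts in control and 488, 176 and 287 in TgAPPsweOCN libraries (adjusted p = 1.83e-05). Ccnd1 (-1.06), Plau (-1.78) and Vegfa (-1.43), named after their values were seen, were among the targets that fell.

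Of 8 tested osteoclast genes downstream of Fos and Nfatc1, 4 rose and 3 fell (87.5% called, beside 64.0% of all genes, and a median log2 fold change of 0.47). The acid phosphatase gene Acp5 rose from 4.68 ± 1.09 to 34.7 ± 11.9 FPKM (3.12, adjusted p = 2.73e-05). Ocstamp, a fusion gene, had 0, 0 and 1 estimated counts in control and 30, 31 and 54 in TgAPPsweOCN libraries. Atp6v0d2, a proton pump subunit, fell from 34.9 ± 10.5 to 5.37 ± 0.408 FPKM (-2.38, adjusted p = 1.64e-05). Among 26 dissociation-response genes 10 rose, led by Nfkbia (2.11) and Socs3 (1.68), and 10 fell, led by Id3 (-2.07, fractional counts) and Gadd45g (-1.51), with a median of -0.05 and 76.9% called. With scaling by library size only, 7 rose and 14 fell.

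Markers of other cell types moved beside these genes. Of the 15 myeloid markers 5 rose and 7 fell (80.0% called, beside 64.0% of all genes), and of 14 tested stromal and osteoblast-lineage markers 1 rose and 4 fell (35.7%). The summed FPKM of 6 osteoclast markers was 11.1 to 13.7 in control and 28.6 to 51.7 in TgAPPsweOCN libraries, with Calcr, Dcstamp and Oscar below 1 in all 6. That of 7 dendritic cell markers, mainly H2-Ab1 and Itgax, was 216 to 302 and 26.2 to 66.4. Flt3, Zbtb46, Cd209a, Ccr7 and Xcr1 were below 1 in all. The summed FPKM of 5 lymphoid markers was 0.97 to 1.49 and 3.30 to 3.72, with Cd3e, Cd3d, Ms4a1 and Cd79a below 1 in all. That of 8 neutrophil markers was 12.8 to 53.7 and 18.4 to 51.7, that of 6 erythroid and megakaryocyte markers 525 to 635 and 116 to 265, nearly all of it Pf4, with Hba-a1, Alas2, Itga2b, Gp9 and Gp1bb below 1 in all, and that of 4 endothelial markers 3.82 to 5.89 and 5.11 to 5.98. Of the tested genes of these lists, 2 osteoclast markers rose and 1 fell among 4, 1 dendritic marker rose and 1 fell among 4, and 1 lymphoid marker of 1, 1 neutrophil marker of 7 (14.3%) and 1 endothelial marker of 4 rose. In addition, 1 erythroid and megakaryocyte marker of 2 and 1 endothelial marker fell. The part of these markers in the AP-1 values was not tested.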

How the data were processed

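RNA-seq of tdTomato+ cells sorted from cultured BMSCs of 6-month-old mice was measured in 6 libraries, 3 per genotype, grouped by the genotype in the sample labels. The authors removed rRNA, adaptor and low-quality reads from DNBSEQ data and mapped the rest with HISAT2. The submitters' processing notes name HISAT2 2.0.4, Bowtie2 2.2.5, RSEM 1.2.12, DESeq2 1.4.5 and mm10. The authors deposited estimated counts per gene, some of them fractional, and FPKM rounded to 2 decimals. RSEM, the only quantification tool named, divides reads shared by similar transcripts, which makes values of such genes uncertain. A further deposited table holds the same FPKM values for fewer genes and the authors' own fold changes and p-values, and was not used. Coordinates are from RefSeq (GRCm38.p6), and overlapping gene models from GENCODE vM21.

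Counts were rounded and compared by the quasi-likelihood test of edgeR 4.0.16 in R 4.3.3, with genotype as the only term, the filterByExpr filter, TMM factors and Benjamini-Hochberg adjustment over 12701 genes. With these totals the smallest level taken as detectable, 3 counts, was 0.136 to 0.155 CPM, a limit that covers counting error only. Genes rose or fell at an adjusted p of 0.05 or less, and a log2 fold change of 1 was the fold threshold. Exact permutation tests were two-sided. The procedure was tested on simulated data. log2 CPM used a prior count of 2. Alternatives were size factors of the RLE method, library size without factors, DESeq2 1.42.0, 2 other count filters, a replicate block, limma 3.58.1 on log2 FPKM (pseudocount 1 or 0.1), other denominators for shares, and leaving out each library.

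The members and the gene lists were chosen with earlier results of these data known. The text names all members, from each pathway list up to 4 genes with the largest absolute log2 fold change among those that rose or fell, the 3 genes most like the most abundant member of each class, App, and marker genes. Any other gene in the text was named after its values were seen. Lists were described by counts and medians, with no test of the list. A few genes of the lists are not reported here and enter neither the counts and medians of their lists nor the plots.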

Additional observations from a re-analysis of the deposited data

How the results depend on the processing

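With each of the 15 alternatives, 5 members fell and, except with limma on log2(FPKM + 1) without a filter (2 members, since Atf3 gave 0.46 with an adjusted p of 0.0618), 3 rose. In every alternative 2 members rose past the fold threshold. The number lowered past it was 2 with edgeR and TMM, 4 with library size only (Jun at -1.19 and Fosl2 at -1.04 were added) and 4 with limma on log2(FPKM + 0.1). It was 3 with limma on log2(FPKM + 1), filtered or not, and 2 to 3 when a library was left out, with 3 without control replicate 3 or TgAPPsweOCN replicate 3, where Jun was at -1.0. Without a library, log2 fold changes spanned -1.74 to -1.48 for Fos, -2.66 to -2.11 for Fosb, -0.11 to 0.09 for Fosl1, -0.19 to 0.07 for Junb, -1.0 to -0.95 for Jun, 0.47 to 0.83 for Atf3, 3.60 to 3.93 for Batf and 1.51 to 1.82 for Maff. Members that did not pass the test changed sign, Fosl1 to 0.0947 without control replicate 1 and Junb to 0.0722 without control replicate 2. The difference in the share of Fosl2 turned from 3.24 to -0.519 percentage points when taken of all 10 members, where that of Fos was -21.4 in place of -2.99, that of Fosl1 0.0707 in place of 1.21, that of Jun -4.34 in place of -9.34, that of Junb 7.26 in place of 11.5 and that of Jund -0.795 in place of -2.16. Taken of summed counts in the subfamily, which also depend on gene length, it was -5.79 for Fos, 7.46 for Fosl2, -2.48 for Fosb in place of -1.45, 0.819 for Fosl1 and -1.41 for Jund. Without a library the differences in share spanned -3.81 to -2.29 for Fos, -1.82 to -1.0 for Fosb, 1.02 to 1.33 for Fosl1, 2.49 to 3.98 for Fosl2, -10.8 to -8.02 for Jun, 9.17 to 13.7 for Junb and -2.95 to -1.15 for Jund, the last without control replicate 1. Scaling by library size only moved the median log2 fold change of all genes from -0.02 to -0.23 and the genes past the fold threshold from 1130 raised and 1169 lowered to 846 and 1732, and limma on FPKM gave 586 to 667 raised and 843 to 1286 lowered. With library size only, serum response factor, its cofactors and the Mef2 factors had 1 raised and 7 lowered genes, the JNK cascade 1 and 8, and the ERK cascade 5 and 4, and the other AP-1 and Maf genes 4 and 2 in place of 6 and 1. The dissociation-response genes had 7 and 14 in place of 10 and 10, the other zipper factors 5 and 8 in place of 7 and 7, and the protein turnover genes 4 and 3 in place of 5 and 2. Correlations of same-numbered deviations were 0.013, 0.007 and 0.141, and 1 of 3 control libraries correlated best with its own number. These values showed no clear pairing, but whether same-numbered libraries shared a culture day is not given in the sources used here. A replicate block gave 7945 called genes in place of 8129 and changed no call of a member (Fos -1.60, Batf 3.76). Low counts limit the values of Fosl1, Bach2 and Egr3 in all libraries and of Gem, Il6, Ocstamp, Mmp3 and Batf3 in control cells. They also limit that of Irf4 in TgAPPsweOCN cells. Control counts of Batf (88 to 136) and Maff (90 to 122) were near those of Fosl1.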

Other observations

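The small Maf genes and their partners, named after their values were seen, give the setting of the rise in Maff. In control cells Mafg had an FPKM of 46.6 ± 1.25 (SD, n = 3), Mafk 11.6 ± 0.359 and Maff 3.04 ± 0.532. In TgAPPsweOCN cells Mafg was at 39.1 ± 1.21 (log2 fold change -0.17, adjusted p = 0.0208, edgeR), Mafk at 9.57 ± 0.21 (-0.10, adjusted p = 0.159) and Maff at 8.31 ± 1.85. Maff thus rose to near the level of Mafk, while Mafg stayed the most abundant of the 3. Of their partners, Nfe2l1 rose, Nfe2l2, the regulator of antioxidant genes, fell from 103 ± 7.86 to 65.0 ± 0.267 (-0.45, adjusted p = 0.000333), and Bach1 was at 19.0 ± 1.74 and 14.1 ± 2.43 (-0.22, adjusted p = 0.114). Hmox1, a gene that Nfe2l2 activates and Bach1 represses, rose from 344 ± 12 to 493 ± 17.1 FPKM (0.73, adjusted p = 8.03e-06).

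The AP-1 target genes that control the cell cycle were also named after their values were seen. Cdkn1a, the gene of the inhibitor p21, rose from 75.5 ± 10.9 to 235 ± 23.0 FPKM (log2 fold change 1.85, adjusted p = 2.05e-06, edgeR). Ccnd1, which encodes cyclin D1, fell from 103 ± 1.4 to 42.7 ± 3.73 (-1.06, adjusted p = 7.24e-06), and Cdkn2a was at 11.3 ± 0.987 and 10 ± 1.55 (0.04, adjusted p = 0.827). Groups did not overlap for Cdkn1a and Ccnd1.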
